A study of Mus musculus with 12 samples.

Results

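The cardiogenic region of the mouse embryo was compared at the first and last of 4 sampled stages, embryonic day 8 (E8) and embryonic day 14 (E14). The 6 libraries of these stages, 3 each, were taken by their labelled stage out of 12 in the series, and all 12 entered the fit. Of 48709 gene intervals in the deposited table, 28846 had enough counts to be tested. The labels describe the tissue as mouse embryo, cardiogenic region, and name no genotype, strain, treatment or sex, so the groups differ by stage alone as far as the labels say. They do not say how many embryos went into a library or whether libraries came from separate litters, so the p-values rest on how far these libraries spread, and that spread may be partly or wholly technical. The E8.5 and E9.5 libraries, 3 each, were used to follow the same genes between the 2 ends.

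At E8 the mouse heart is a forming tube beside foregut endoderm and progenitor mesoderm, and cells of the second heart field are still being added to it. By E14 it has 4 chambers, valves under remodelling, an epicardial cover, invading coronary vessels, fibroblasts and definitive red cells in its lumen. Genes of the early embryo such as Lin28a, whose protein blocks maturation of let-7 microRNAs, are shut down in most tissues. Long non-coding RNAs are transcripts over a set minimum length with no protein product, and many lie beside or across a coding gene.

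The E8 libraries held 101231014 to 122785175 counts each and the E14 libraries 56574386 to 97187372. Levels are given as CPM, counts scaled to a common library size, and 0.1 CPM was 10.5 to 12.5 counts at E8 and 5.27 to 9.26 counts at E14. Cardiomyocyte markers (6 of 6 in the table) summed to 9687 to 11081 CPM at E8 and 16818 to 17174 CPM at E14, so the tissue label held at both stages. Erythroid markers (8 of 8) summed to 401 to 421 CPM at E8 and 20065 to 66205 CPM at E14, and globins took 1.91% to 6.03% of the counts of an E14 library. Lung and airway markers (5) summed to 9.30 to 10.1 CPM at E8 and 0.475 to 0.608 CPM at E14, with Sftpc at 0 counts at E14. Hepatocyte markers (6) went from 5.66 to 6.62 CPM at E8 to 8.29 to 11.8 CPM at E14, with only 1 called higher. Skeletal muscle markers (6) went from 0.192 to 0.372 to 10.4 to 16.1 CPM with Myf5 at 0 counts at E8. Macrophage markers (5) went from 11.5 to 13.9 to 28.1 to 35.3 CPM. In whole dissected tissue, a change in the number of cells of a type and a change in RNA per cell cannot be told apart. One E8.5 library, replicate 3, stood apart from the others of its stage, and the counts of calls that use E8.5 are given with and without it.

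Between E8 and E14 most of the transcriptome moved. By edgeR's quasi-likelihood test at a Benjamini-Hochberg adjusted p under 0.05, 9089 genes (31.5% of those tested) were higher at E14 and 8410 (29.2%) were lower, 60.7% in all. In 72.3% of tested genes the 3 libraries of one stage all lay above the 3 of the other. Against a log2 difference of at least 1, 3264 genes were higher and 2013 lower. The median log2 difference over all tested genes was 0.04. A call alone is therefore common in this comparison, and the counts below are to be read against those shares.

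Most changes were changes of degree, and few genes went from near zero to a clear level or back. A gene was classed as switched on when it was called higher, had at most 0.1 CPM in each E8 library and at least 1 CPM in each E14 library, and as switched off when it was called lower with the same limits reversed. These limits use the contrast itself, so the classes and their differences are described and not tested. There were 93 switched-on genes, 0.322% of those tested, of which 64 were coding, 14 were long non-coding and 15 were of other types. There were 45 switched-off genes, 0.156%, of which 35 were coding, 6 were long non-coding and 4 were of other types. Leaving out rows whose interval overlaps another with at least 0.5 times their own counts, so that reads may be shared, 57 switched-on genes (50 coding, 5 long non-coding) and 36 switched-off genes (31 coding, 2 long non-coding) were left. Other limits gave other sizes: 15 and 12 genes with 0.05 and 2 CPM, 206 and 98 genes with 0.2 and 1 CPM, and 19 and 21 genes with at most 3 counts per library as near zero.

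Near zero was rarely zero. At E8, 2 of the 93 switched-on genes, Abca8a and Ppbp, had no count in any library, and 18 had none in at least 1 library. At E14, 1 of the 45 switched-off genes, the pseudogene Pramel, had no count in any library, and 22 had none in at least 1. The level reached was modest for most switched-on genes: 49 of 93 averaged under 2 CPM at E14 and 6 averaged at least 10 CPM. Of the switched-off genes, 21 of 45 averaged under 2 CPM at E8 and 9 at least 10 CPM.

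**Figure D1:**
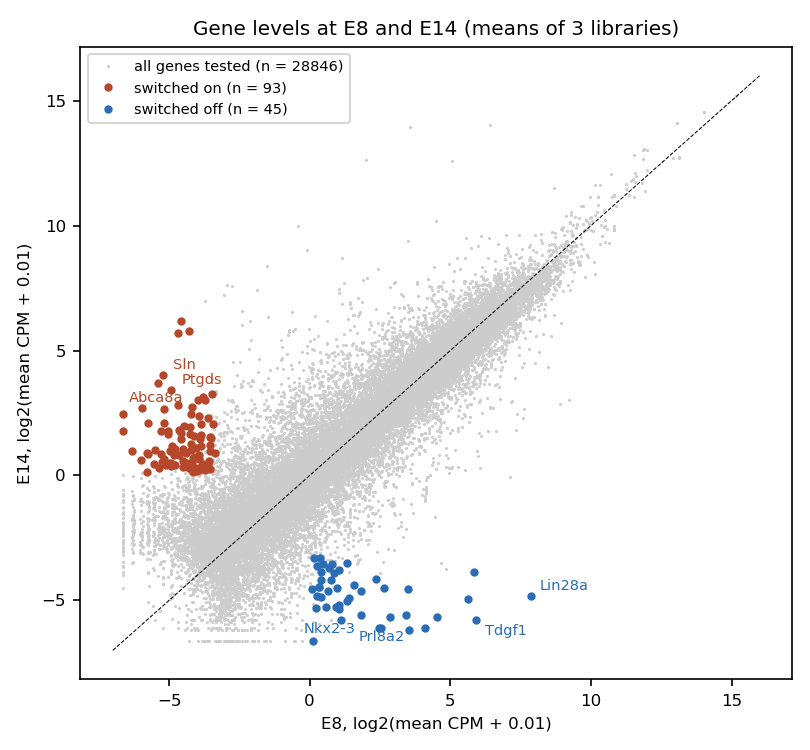
Each point is a tested gene, at the log2 of its mean CPM plus 0.01 over 3 libraries at E8 (horizontal axis) and at E14 (vertical axis); the dashed line marks equal levels. The 93 switched-on genes (red) and 45 switched-off genes (blue) lie in opposite corners because the limits of the classes place them there, and Lin28a stands farthest right among the blue points.

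Promoter sequences of the leading coding members with a RefSeq entry (build GRCm38.p6) show how the windows before these genes read, from 250 bases before to 50 bases after the start, 5′ to 3′ on the gene's strand. CG dinucleotides, the sites of DNA methylation in mammals, are in capitals. Ptgds (minus strand, chr2:25469700-25469999) held 2 and Plscr4 (plus strand, chr9:92457128-92457427) held 5, both switched on. Lin28a (minus strand, chr4:134018767-134019066) held 10 and Tdgf1 (minus strand, chr9:110946109-110946408) held 7, both switched off.
Ptgds: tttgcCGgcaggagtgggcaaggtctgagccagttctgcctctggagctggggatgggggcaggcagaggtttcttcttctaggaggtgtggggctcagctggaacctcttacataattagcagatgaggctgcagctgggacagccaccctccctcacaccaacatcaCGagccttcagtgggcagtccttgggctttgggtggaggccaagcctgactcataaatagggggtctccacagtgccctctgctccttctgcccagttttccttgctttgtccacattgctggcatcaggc
Plscr4: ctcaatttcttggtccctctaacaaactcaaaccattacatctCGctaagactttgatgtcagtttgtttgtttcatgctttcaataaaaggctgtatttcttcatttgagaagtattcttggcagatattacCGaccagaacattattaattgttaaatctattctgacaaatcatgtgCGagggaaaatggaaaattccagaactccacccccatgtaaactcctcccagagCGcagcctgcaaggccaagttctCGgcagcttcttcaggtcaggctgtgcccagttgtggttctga
Lin28a: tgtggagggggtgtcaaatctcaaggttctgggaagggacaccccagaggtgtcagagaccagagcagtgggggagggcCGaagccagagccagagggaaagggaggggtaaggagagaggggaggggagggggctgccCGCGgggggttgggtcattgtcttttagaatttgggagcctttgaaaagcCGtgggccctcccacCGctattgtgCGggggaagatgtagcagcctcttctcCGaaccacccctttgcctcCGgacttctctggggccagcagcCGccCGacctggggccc
Tdgf1: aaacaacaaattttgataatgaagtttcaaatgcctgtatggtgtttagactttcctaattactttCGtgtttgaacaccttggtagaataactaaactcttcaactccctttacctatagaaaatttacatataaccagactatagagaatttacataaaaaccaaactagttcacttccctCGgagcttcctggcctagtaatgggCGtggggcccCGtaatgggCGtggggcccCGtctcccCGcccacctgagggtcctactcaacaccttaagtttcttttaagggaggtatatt

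The median over the 12053 tested coding genes with a matched window was 19 CG per window, so each of these 4 lay below it. A window was matched for 43 of 64 switched-on coding genes (67.2%) and 25 of 35 switched-off coding genes (71.4%), under 80%, so a comparison of the classes by promoter content is void and none is given.

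Of the switched-on coding rows, the 3 highest at E14, Gm10721, Gm10717 and Gm10720, lie in a block on chromosome 9 described further on, and the highest named gene was Sln. Sln (ENSMUSG00000042045.6, chromosome 9, 53850251 to 53853844) encodes sarcolipin, a small membrane protein that inhibits the calcium pump of the sarcoplasmic reticulum and marks atrial and skeletal muscle. It had 1, 2 and 3 counts in the E8 libraries and 1063, 1140 and 1224 in the E14 libraries, which is 0.00955, 0.0172 and 0.0239 CPM against 20.2, 12.3 and 15.9 CPM. All 3 E14 libraries lay far above all 3 E8 libraries, a 892-fold difference of the pooled counts, with the E8 side resting on 6 reads. Ptgds, a prostaglandin D synthase, went from 0.00955, 0.0343 and 0.0239 to 11.2, 9.57 and 11.3 CPM. Plscr4, a phospholipid scramblase, went from 0.0764, 0.0773 and 0.0878 to 9.78, 9.51 and 9.42 CPM, and Btnl9, of the butyrophilin-like family, from 0.0764, 0.0515 and 0.0559 to 7.27, 9.25 and 9.95 CPM. The groups did not overlap for any of these, as the class requires.

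Matrix and transporter genes followed. Fmod, a collagen-binding proteoglycan, stood at 0.0573, 0.0601 and 0.0798 CPM at E8 and 7.84, 7.86 and 8.51 CPM at E14. Abca8a, a lipid transporter of the ABC family, had 0 counts in each E8 library and 250, 530 and 452 counts at E14, at least 641-fold higher against a floor of 3 counts over the E8 group. Nov, a matricellular protein also called CCN3, averaged 0.0353 ± 0.0119 CPM at E8 and 3.89 ± 0.170 CPM (SD, n = 3) at E14. Clca3a2, a chloride channel accessory protein, averaged 0.0177 ± 0.0101 and 6.40 ± 0.559 CPM, and its near-identical neighbour Clca3a1 makes the split of its reads uncertain. Dpt, the matrix protein dermatopontin, averaged 0.0137 and 13.1 CPM but shares reads with Gm32569. Aldh1a1, a retinaldehyde dehydrogenase that makes retinoic acid, averaged 0.0177 CPM at E8 and 4.32 CPM at E14.

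Platelet and immune genes were among the members. The platelet genes Pf4 (0.0477, 0.0429 and 0.0878 to 4.59, 3.20 and 4.78 CPM) and Ppbp (0 counts in each E8 library, 185, 215 and 340 counts at E14) are next to each other on chromosome 5, and Gp9, a platelet surface glycoprotein, averaged 1.77 CPM at E14. The macrophage receptors and adaptors Tyrobp, Msr1, Fcrls and Trem2 averaged 2.22, 1.99, 3.13 and 1.23 CPM at E14. Macrophage markers as a whole went from 11.5 to 13.9 to 28.1 to 35.3 CPM, and their part in these levels was not tested. The interferon-induced genes Rsad2 and Ifi27 went from 0.0382, 0.0343 and 0.0958 to 6.30, 1.97 and 7.35 CPM and from 0.0573, 0.0773 and 0.0798 to 5.70, 4.39 and 4.66 CPM. Rsad2 was lowest in E14 replicate 2 by a factor of over 3. Among the chemokines, Ccl21a, which lymphatic vessels use to attract leukocytes, averaged 6.53 CPM at E14, and its copies Ccl21b and Gm13304 averaged 1.77 and 3.40 CPM; reads of these copies cannot be assigned with certainty.

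Genes best known from other tissues were also in the class. Myh8, the perinatal myosin heavy chain of skeletal muscle, went from 0.0764, 0.0429 and 0.0399 to 9.55, 7.32 and 7.44 CPM, and its neighbour Myh1, which shares reads with Gm12300, reached 1.18 CPM. Skeletal muscle markers summed to 10.4 to 16.1 CPM in the same E14 libraries, but Myh8 is itself among these markers. Alb, serum albumin, went from 0.0477, 0.0343 and 0.00798 to 3.44, 2.97 and 4.17 CPM, and Ahsg, the liver glycoprotein fetuin-A, reached 1.38 CPM. Hepatocyte markers, which include Alb, summed to 8.29 to 11.8 CPM at E14. Of the 6 tested, 1 was higher and 0 were lower. Apoa1 stood at 0.356 and Ttr at 0.549 CPM at E14, the latter sharing reads. Their log2 differences from E8, -0.76 and -2.78, did not pass the test in the main fit. In a fit of E8 and E14 alone Apoa1 and Ttr passed as lower (adjusted p = 0.0169 and 5.35e-08, edgeR). The sum ranged from 12.3 to 455 CPM over the E8.5 libraries and from 3.57 to 129 CPM over the E9.5 libraries. The part of skeletal muscle or liver RNA in these values was not tested.

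The switched-off coding genes with the highest levels at E8 were Lin28a, Tdgf1, Nptx2 and Foxh1. Lin28a (ENSMUSG00000050966.9, chromosome 4, 134003330 to 134018841) had 23085, 28209 and 30078 counts at E8, the highest level of the class, and 0, 7 and 0 counts at E14. In CPM this was 220.4, 242 and 240.0 against 0, 0.0756 and 0, a 7447-fold difference of pooled counts, with the 7 reads of the E14 side all in 1 library. Nodal is a secreted signal of the TGF-beta family that patterns mesoderm and the left-right axis. Its co-receptor Tdgf1, also called Cripto, had 5987, 7224 and 7995 counts at E8 and 0, 1 and 1 at E14, and the second co-receptor Cfc1 went from 4.92, 5.20 and 5.27 to 0.0190, 0.0432 and 0.0782 CPM. Foxh1, the forkhead factor that carries the signal to target genes, went from 44.8, 52.4 and 50.4 to 0.0190, 0.0216 and 0.0261 CPM. Tdgf1-ps1, a processed copy of Tdgf1, was switched off as well (from 10.6 to 0.0108 CPM), and reads of the copy and its parent may be mixed.

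Of 21 tested foregut endoderm genes 5 were switched off, and of 20 neural plate genes 1 was. Nkx2-6 and Nkx2-3, homeobox factors of the pharynx and gut, went from 7.23, 7.11 and 7.21 to 0.0190, 0.0108 and 0 CPM and from 4.96, 5.91 and 5.47 to 0, 0 and 0.0130 CPM. The endoderm factors Foxa1 and Foxa2 averaged 1.92 and 2.03 CPM at E8 and 0.0159 and 0.0143 CPM at E14. Otx2, a head patterning factor, averaged 3.53 and 0.0107 CPM. Lhx1, Barx1 and Etv2, the last an ETS factor of blood and endothelial progenitors, averaged 2.07, 1.47 and 2.51 CPM at E8 and 0.0171, 0.0159 and 0.0206 CPM at E14. Gbx2 and Foxe1 were switched off too, but share reads with D130058E05Rik and Gm12446. Of 33 tested forkhead genes, 18 were lower, 8 were higher, 4 were switched off and 1, Foxs1, was switched on.

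Other members with high levels at E8 had varied roles. Cldn6, a tight junction protein of embryonic epithelium, went from 10.2, 11.8 and 11.5 to 0.0759, 0.0108 and 0.0130 CPM. Nptx2, a neuronal pentraxin, went from 53.0, 59.97 and 60.4 to 0.0570, 0.0432 and 0.0782 CPM, and Pyy, a gut peptide, from a mean of 5.85 to 0.00434 CPM. Zscan10, a zinc finger factor of embryonic stem cells, averaged 2.61 and 0.0238 CPM. Phlda2, an imprinted gene that limits placental growth, averaged 6.25 and 0.0345 CPM. Prl8a2, a prolactin-family gene of the decidua, had 1866, 1928 and 2164 counts at E8 and 0, 0 and 1 at E14. At E8.5 its libraries stood at 22.4, 19.1 and 1.09 CPM, those of the retroviral gene Erv3 at 47.0, 33.7 and 1.97 CPM and those of Aoc1, a diamine oxidase, at 6.99, 5.91 and 0.723 CPM. In these 3 genes E8.5 replicate 3 was the lowest library of its stage. In a list of 14 decidual and trophoblast genes chosen after these values were seen, 10 were tested, 5 were lower, 1 was higher and the median log2 difference was -1.64. The part of maternal or placental tissue in these values was not tested.

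**Figure D2:**
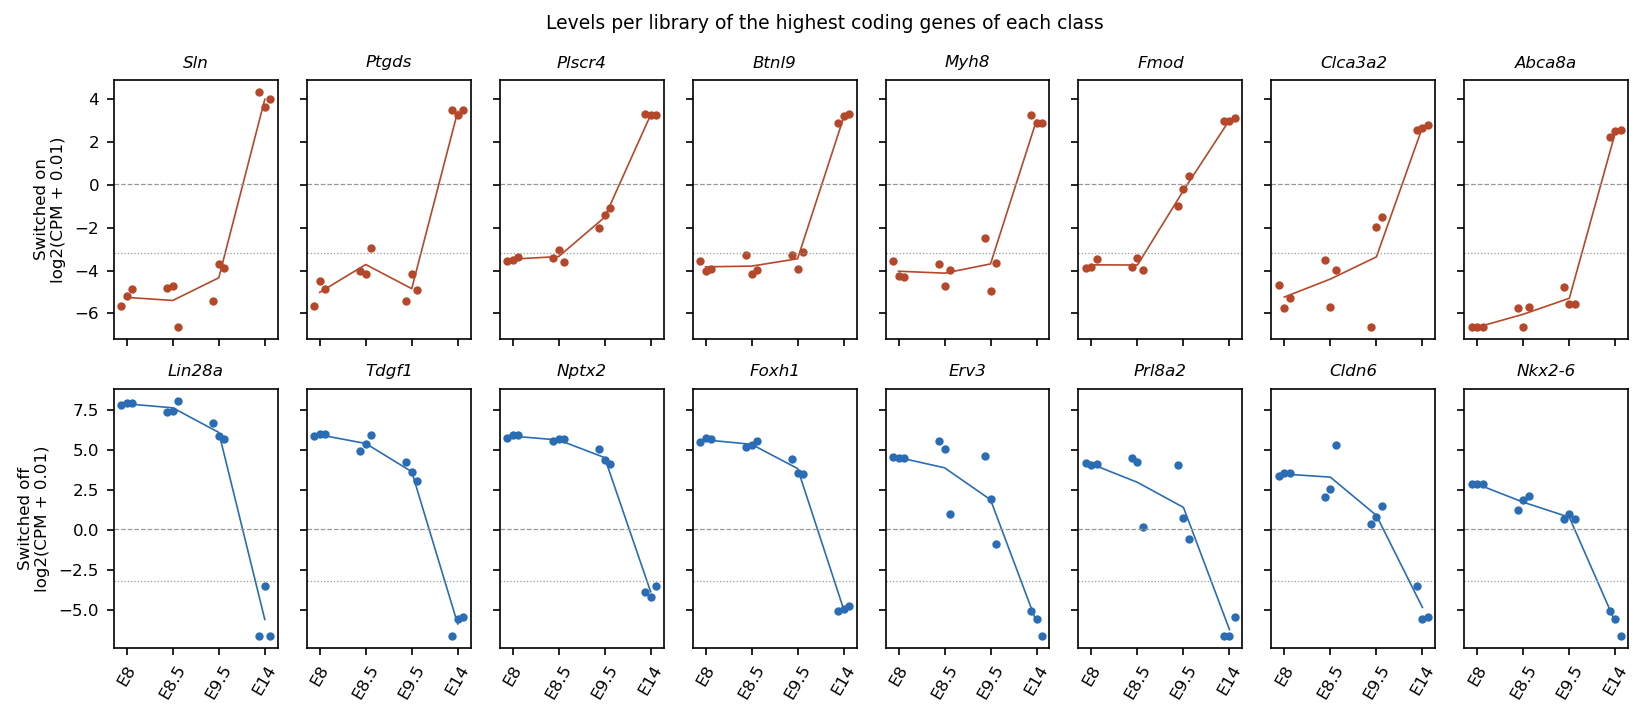
Levels per library, as log2 of CPM plus 0.01, over the 4 stages for the 8 named coding genes of each class with the highest level, read-sharing rows left out, with switched-on genes in the top row and switched-off genes in the bottom row; points are libraries, lines join stage means, and the dotted and dashed lines mark 0.1 and 1 CPM. Sln, Ptgds, Btnl9, Myh8 and Abca8a stay below 0.2 CPM up to E9.5, whereas Lin28a, Tdgf1, Nptx2 and Foxh1 are still above 8 CPM there.

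At the limits the classes shade into their neighbours. Just inside the switched-on class by the lowest E14 library were Trem2 (1.65, 1.05 and 1.003 CPM in its E14 libraries) and Kl. Just outside it were the microRNA row Mir7212 (1.22, 1.04 and 0.990 CPM), Pcdhb7 and Msc, each with at least 1 E14 library just under 1 CPM and each sharing reads. Just inside the switched-off class by the lowest E8 library were Gm13094, Slc22a8 (1.12, 1.14 and 1.03 CPM in its E8 libraries) and Gm45152, and just outside it were Elf3 (1.08, 1.07 and 0.966 CPM in its E8 libraries, reads shared), Klk1b5 and D130058E05Rik.

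The CPM limits of the classes use no E8.5 or E9.5 value, though these libraries share in the fit behind the calls, and in a fit of E8 and E14 alone the classes held 89 and 44 genes. Switched-on genes were still low at E9.5: their median level was 2.5% of the E14 level at E8.5 and 5.94% at E9.5, and in 18 of 93 all E9.5 libraries were still at most 0.1 CPM. Switched-off genes were still high at E8.5, with a median of 86.3% of the E8 level, and stood at 30.4% at E9.5. Between E8.5 and E9.5, edgeR's quasi-likelihood test called 44 of the 93 switched-on genes higher (47.3%) and 1 lower, and 18.4% of all tested genes higher. Many of the 93 passed the count filter only through their E14 counts and lay near the floor of counting at both middle stages, with all E8.5 libraries at most 0.1 CPM in 52, so this count is a description and is not set against other genes or against the switched-off class. Of the 45 switched-off genes, 34 were called lower (75.6%) and 1 higher, and 18.5% of all tested genes were lower. By the limits of their class these genes had to fall somewhere between E8 and E14, so this count is a description too. Without E8.5 replicate 3 the counts were 41 and 31, and in a fit of the E8.5 and E9.5 libraries alone they were 19 and 28. Without E9.5 replicate 2 the first count was 29.

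Single switched-on genes stood at different levels by E9.5. Aldh1a1 stood at 0.262, 4.09 and 7.27 CPM in the E9.5 libraries, a log2 difference from E8.5 of 5.63 (adjusted p = 0.00186, edgeR). Pf4 stood at 0.787, 3.15 and 4.19 CPM (log2 difference 6.09 ± 0.65, SE, adjusted p = 0.000111, edgeR) and Alb at 0.0131, 2.30 and 4.66 CPM (5.76 ± 1.25, adjusted p = 0.00535, edgeR). In all 3 genes E9.5 replicate 1 was the lowest library. Fmod had also risen, to 0.486, 0.872 and 1.30 CPM (3.74 ± 0.34, adjusted p = 4.66e-05, edgeR). Sln (0.0131, 0.0680 and 0.0571 CPM), Btnl9 (0.0919, 0.0566 and 0.103 CPM) and Abca8a (0.0262, 0.0113 and 0.0114 CPM) did not pass the test. Over the E8.5 and E9.5 libraries Sln held 6 and 12 counts, Btnl9 22 and 21, and Abca8a 2 and 4. So near the floor of counting the test cannot decide whether they had begun to rise. Of the switched-off genes, Lin28a stood at 104.01, 58.4 and 51.2 CPM at E9.5 and had fallen from E8.5 by a log2 difference of -1.50 ± 0.29 (SE, adjusted p = 0.00256, edgeR), and Nkx2-3 by -4.40 ± 0.50 (adjusted p = 0.000151, edgeR). Matn3, a cartilage matrix protein, went the other way, with 1.83 CPM at E8.5 and 2.80 CPM at E9.5 before 0.0766 CPM at E14.

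**Figure D3:**
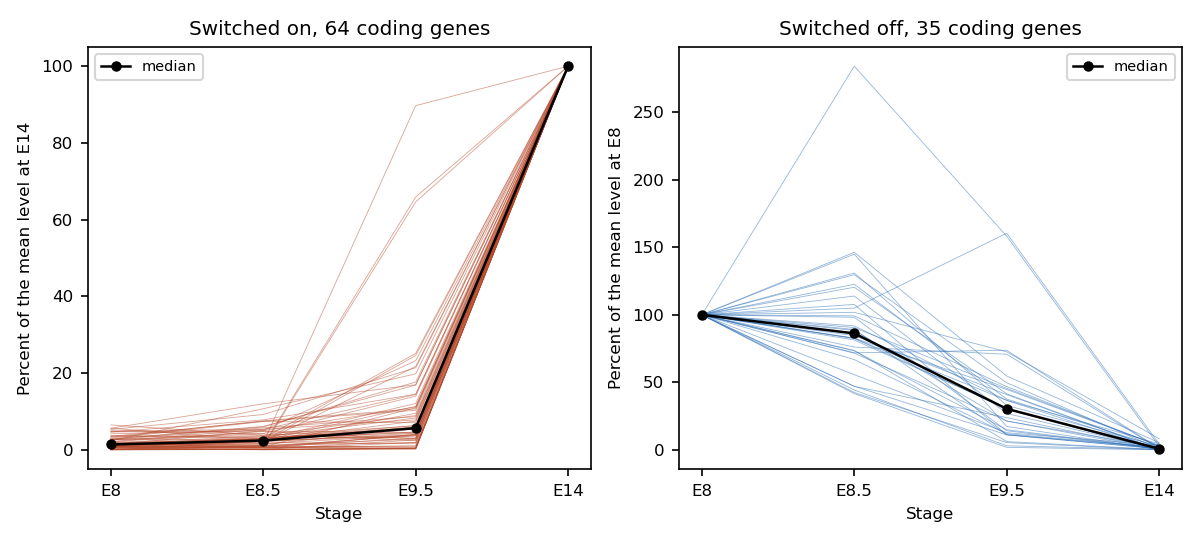
Mean level of each switched coding gene at the 4 stages as a percentage of its mean at E14 (left, 64 switched-on genes) or at E8 (right, 35 switched-off genes); thin lines are genes and black points are the median over genes. The left median stays under 6% up to E9.5, and the right median stands at 86.3% at E8.5 and 30.4% at E9.5.

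Outside the classes, with read-sharing rows left out, the largest rises among named coding genes of at least 10 CPM were in globins, muscle and matrix. The adult beta-globin genes Hbb-bt and Hbb-bs went from 4.24, 3.81 and 3.98 to 7228, 2717 and 8916 CPM and from 12.2, 11.3 and 12.3 to 17894, 6826 and 22191 CPM, and E14 replicate 2 was the lowest E14 library for both. Hba-a1 and Hba-a2, the alpha-globin pair, rose by log2 differences of 7.61 ± 0.57 and 7.53 ± 0.57 (SE), and reads of each pair of copies may be exchanged. Hbb-bh1, an embryonic beta-type globin, fell from 189, 197 and 199 to 7.27, 2.86 and 8.81 CPM after a peak of 1589 CPM at E9.5. Ckm, the muscle creatine kinase that buffers ATP, rose from 0.936, 0.944 and 0.918 to 554, 496 and 509 CPM, a 552-fold rise (log2 9.12 ± 0.13, adjusted p = 1.26e-12, edgeR). Its libraries lay within a narrow range at each stage. Casq2, the calcium buffer of the cardiac sarcoplasmic reticulum, rose from 2.19, 2.09 and 2.35 to 435, 386 and 428 CPM.

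Outside the classes, falls were found in genes of several roles. With read-sharing rows left out, Cck, a peptide hormone, and Car4, a membrane carbonic anhydrase, had the largest falls among named coding genes of at least 10 CPM, 401-fold and 375-fold. Each missed the switched-off class because 1 E14 library lay above 0.1 CPM. Trim71, a let-7 target with an RNA-binding domain, fell from 139, 141 and 140.0 to 1.01, 0.907 and 0.951 CPM (log2 -7.20 ± 0.20, adjusted p = 3.3e-10, edgeR). Prtg, a cell surface receptor of the early embryo, fell from 493, 476 and 479.6 to 6.85, 7.81 and 7.09 CPM, and Sall4, a zinc finger factor of stem cells, from 62.7, 67.1 and 67.6 to 1.16, 1.17 and 1.37 CPM. Has2, the hyaluronan synthase that makes the matrix of the early heart, fell from 194, 188 and 190.4 to 5.14, 4.60 and 4.87 CPM. Col2a1, a fibrillar collagen of cartilage, notochord and early mesenchyme, fell from 542, 632 and 595 to 7.59, 8.75 and 7.89 CPM. Cdh1, Krt8, Lama1 and Wnt2 fell by log2 differences of -5.28, -5.52, -5.22 and -5.01.

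In heart muscle the contractile genes rose on balance, with an atrial light chain among those that fell. Of 30 tested sarcomere genes, 21 were higher and 3 lower at E14, with a median log2 difference of 1.16 beside 0.04 over all tested genes. Myoz2, a Z-disc protein, rose from 0.611, 0.644 and 0.670 to 94.3, 85.6 and 98.7 CPM (log2 7.17 ± 0.40), and Myom2, an M-band protein, from 0.487 to 24.4 CPM. Myl2, the ventricular regulatory light chain, rose from 406, 420.5 and 409.7 to 2908, 2946 and 2952 CPM, while the atrial light chain Myl7 fell from 1405, 1482 and 1458 to 785, 575 and 583 CPM. Tnni3, the cardiac troponin I, rose by a log2 difference of 2.38 and Tnni1, the early slow form, by 0.95. Myh6 had a log2 difference of 0.17 ± 0.11 and Ttn of -0.42 ± 0.31, and neither passed the test. Acta1 (-1.15), which shares reads, and Nebl (-1.12) were the other 2 that fell.

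Calcium and channel genes moved in both directions. Of 37 tested, 19 were higher and 7 lower (median 0.35). Besides Sln and Casq2, phospholamban, encoded by Pln, had 11.4, 11.4 and 10.96 CPM at E8 and 719, 618 and 671 CPM at E14 and shares reads. The repolarising potassium channels Kcnd2 (log2 5.39 ± 0.34), Kcnj3 (5.29) and Kcnj2 (4.29) rose, as did Gja1, the gap junction protein connexin 43, from 23.4, 23.2 and 23.6 to 187, 187 and 187 CPM. The pacemaker channel gene Hcn4 fell from 62.2, 65.6 and 67.2 to 7.08, 8.83 and 7.40 CPM, as did the L-type channel Cacna1d (log2 -2.04 ± 0.27). The calcium pump Atp2a2 and the release channel Ryr2 had log2 differences of 0.01 ± 0.09 and -0.29 ± 0.21 and did not pass the test. Among 20 receptors and peptides of the natriuretic and neurohormonal list, 12 were higher and 1 lower, with Chrm2, the cardiac muscarinic receptor, up from 4.70, 4.39 and 4.03 to 61.3, 71.8 and 79.4 CPM. Nppa, which shares reads, averaged 127 and 795 CPM.

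Fatty acid genes rose nearly throughout, and glycolysis genes moved in both directions. Of 25 fatty acid and ketone oxidation genes, 23 were higher and 2 did not pass the test, with a median log2 difference of 1.88. Cpt1a, which commits fatty acids to mitochondrial import, rose from 0.993, 0.730 and 1.24 to 40.3, 42.0 and 43.2 CPM. Ppara, the nuclear receptor that drives fatty acid genes, rose from 0.602, 0.498 and 0.479 to 8.49, 9.10 and 9.11 CPM, and Oxct1, the ketone-using enzyme, from 26.8, 27.2 and 26.8 to 227, 196 and 215 CPM. Esrrg (0.03) and Ucp3 (0.75) did not pass. Of 24 glycolysis genes, 9 were higher and 11 lower (median -0.42). The glucose transporters Slc2a3 and Slc2a1 fell from 341, 367 and 359 to 20.98, 19.4 and 20.2 CPM and from 396, 420.0 and 419 to 93.0, 83.1 and 83.2 CPM, while Slc2a4, the insulin-regulated transporter, rose by a log2 difference of 2.43. Isoforms of one step could differ: Hk2 (-1.80), Eno1 (-1.59) and Pgam1 (-1.26) fell, and Hk1 (0.74), Eno3 (0.36), Pgam2 (1.23) and Ldhb (3.66) rose.

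Cover, matrix and vessel lists held large shares of genes that rose. Of 16 epicardium and mesothelium genes 14 were higher and 2 lower (median 4.22), and of 24 fibroblast and matrix genes 21 were higher and 3 lower (median 4.01). The mesothelial mucin Muc16 and the surface proteins Msln and Upk3b went from 0.239, 0.189 and 0.247 to 44.7, 42.1 and 40.7 CPM, from 0.0573, 0.0687 and 0.112 to 17.0, 13.3 and 13.03 CPM and from 0.134, 0.283 and 0.223 to 38.0, 30.5 and 32.4 CPM. The epicardial factors Wt1 (3.13), Tbx18 (4.43) and Tcf21 (3.82) rose, and Igfbp5 (-0.62) and Krt19 (-1.67) fell. Thbs2, Dcn and Eln rose by 357-fold, 327-fold and 242-fold, and Col3a1 rose from 21.4, 23.3 and 23.2 to 1183, 1123 and 1151 CPM. Against the list, Fbln1 (-1.05), Col5a1 (-0.74) and Pi16 (-0.71) fell. Of 44 collagen genes, 30 were higher and 8 lower. Of 22 endothelial and coronary genes 15 were higher and 2 lower (median 0.66): Fabp4 rose from 0.496, 0.652 and 0.583 to 50.3, 47.0 and 49.7 CPM and Cldn5 from 0.707, 0.910 and 0.989 to 10.3, 9.21 and 9.84 CPM, and Car4 fell. Of 8 lymphatic genes 5 were higher and 2 lower.

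Smooth muscle and valve lists held both directions. Of 16 smooth muscle and pericyte genes, 7 were higher and 6 lower (median -0.11). The pericyte channel genes Kcnj8 (6.38) and Abcc9 (2.66) and the receptor Pdgfrb (1.67) rose, while the contractile genes Tagln (269, 295 and 285 to 31.6, 31.0 and 30.0 CPM), Lmod1 (-4.91), Myh11 (-2.29) and Acta2 (-1.36) fell. Of 20 valve mesenchyme genes, 9 were higher and 9 lower (median 0.13). Postn, the matricellular protein periostin, rose from 5.12, 5.42 and 5.71 to 300.01, 323 and 302 CPM, and the cardiac jelly genes Has2, Hapln1 (-3.20) and Vcan (-2.08) fell.

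Macrophage and red cell genes mostly rose. Of 24 macrophage and leukocyte genes, 20 were higher and 2 lower (median 2.97). F13a1 rose from 0.707, 0.558 and 0.630 to 21.96, 18.3 and 17.5 CPM and the complement gene C1qa from 0.191, 0.506 and 0.375 to 4.71, 3.96 and 4.39 CPM, while Fcgr3 (-0.96) and Cd52 (-1.44, reads shared) fell. Of 18 erythroid genes, 12 were higher and 5 lower (median 2.29). Slc4a1, the anion exchanger of the red cell membrane, rose by a log2 difference of 2.74, but Klf1, Gata1 and Epor, regulators of red cell formation, fell by log2 differences of -2.73, -1.40 and -1.60. Of 20 nerve and Schwann cell genes, 11 were higher and 1, Th (-1.58), was lower. Fabp7, a glial fatty acid binding protein, was switched on (mean 0.0262 to 2.07 CPM), whereas Sox10 (0.46) did not pass the test.

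Progenitor and early embryo genes mostly fell. Of 26 second heart field and progenitor genes, 21 were lower and 4 higher (median -2.06). Isl1, the factor that marks the second heart field, fell from 23.4, 23.7 and 23.04 to 1.40, 1.35 and 1.498 CPM, Tbx1 from 2.64, 3.05 and 2.99 to 0.171, 0.270 and 0.104 CPM and the ligand gene Fgf8 from 9.97 ± 0.753 to 0.170 ± 0.0679 CPM (SD, n = 3). Nkx2-5 fell from 91.7, 104.4 and 103.7 to 30.5, 28.6 and 27.7 CPM, whereas Gata4 (-0.16 ± 0.15) did not pass and Gata6 (0.40) rose. Of 22 streak and early mesoderm genes 15 were lower and 2 higher (median -2.46), with 8 more below the filter. Of 14 left-right and node genes 11 were lower and 1 higher, and of 19 pluripotency and epiblast genes 14 were lower and 1, Nanog, was higher (from 0.244 to 0.677 CPM). Cyp26a1, which degrades retinoic acid, fell from 7.82, 8.31 and 8.06 to 0.0949, 0.0972 and 0.156 CPM.

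Foregut endoderm had the lowest median of all lists. Of its 21 tested genes 19 were lower and 1, Prss12, was higher, with a median log2 difference of -5.31, and 5 were switched off. Epithelial genes led in level: Krt8 fell from 154, 169 and 160.005 to 4.12, 2.92 and 3.54 CPM and Krt18 by a log2 difference of -3.70. Neural plate genes were lower in 13 of 20 and higher in 2, with neural plate markers at 6.72 to 7.73 CPM in sum at E8 and 0.454 to 0.547 CPM at E14. Of 18 visceral endoderm and liver genes, 1 was higher, 1 lower and 16 did not pass the test. In 14 of the 18 the libraries of the 2 stages did not overlap, beside 72.3% of all tested genes. The test takes its spread from all 4 stages. Visceral endoderm markers (4) summed to 13.2 to 14.2 CPM at E8, 43.9 to 1171 CPM at E8.5 and 6.17 to 7.06 CPM at E14. Somite genes split, 9 higher and 7 lower, and the higher ones included Meox2 (0.115, 0.197 and 0.239 to 10.8, 15.1 and 15.6 CPM). Of 10 lung and airway genes 9 were lower and 1 did not pass the test. Of 19 neural crest genes 8 were lower and 4 higher (median -0.91), of 10 skeletal muscle genes 6 were higher and 2 lower (median 1.72), and of 7 lymphocyte and thymus genes 3 were lower and 1 higher. The lymphocyte median was -0.21 and 0.05 without E8 replicate 1. Surface ectoderm genes, 6 higher and 4 lower of 13, had a median of 0.61 and a mean of -0.19.

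The oncofetal RNA-binding list fell as a whole: 12 of 12 genes were lower at E14, with a median log2 difference of -3.10. Besides Lin28a and Trim71, Hmga2, a chromatin protein and let-7 target, fell from 281, 246 and 247 to 19.1, 26.5 and 23.04 CPM, Igf2bp1 from 269, 265 and 263 to 44.4, 49.9 and 48.2 CPM and Lin28b, the second Lin28 gene, from 59.4, 52.7 and 52.5 to 8.92, 11.4 and 10.5 CPM. Lin28b thus stayed measurable in all E14 libraries, and Lin28a did not. Of 32 cell cycle genes 20 were lower and 4 higher (median -0.51), led by Mybl2 (-2.23), with Cdkn1a, a cell cycle inhibitor, higher (2.17). Mki67 (0.13 ± 0.13) and Ccna2 (-0.02 ± 0.11) did not pass the test. Of 30 imprinted genes 18 were lower and 8 higher: Cdkn1c (-1.56) and Peg3 (-1.16) fell, and Igf2 (0.93) and H19 (0.55) rose.

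The series concerns the DNA methyltransferase DNMT3B, and the de novo enzymes moved in opposite directions. Dnmt3b fell from 39.2, 40.8 and 40.5 to 6.26, 7.48 and 6.995 CPM (log2 -2.53 ± 0.19, adjusted p = 4.68e-07, edgeR), and no libraries of the 2 stages overlapped. Dnmt3a rose from 60.05, 62.8 and 61.3 to 124, 134 and 122 CPM (log2 1.04 ± 0.12, adjusted p = 1.52e-05, edgeR). Of 11 genes of the methylation machinery 3 were higher and 5 lower. Tet2, which oxidises methylated cytosine, rose by a log2 difference of 1.10, and Dnmt1 and Uhrf1, which copy methylation at replication, fell by -0.64 and -0.75.

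**Figure D4:**
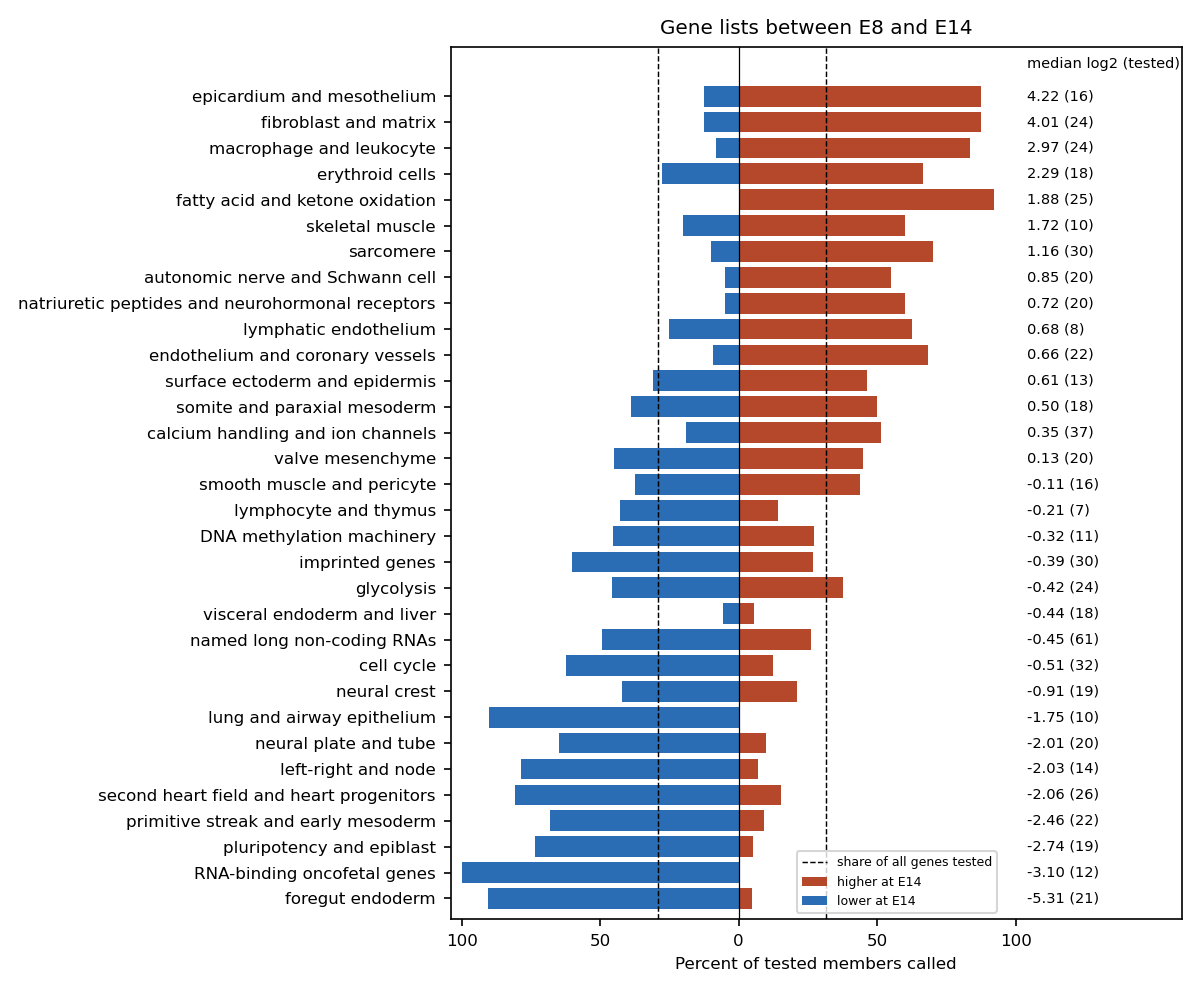
Percentage of tested members of 32 gene lists called higher (red, to the right) or lower (blue, to the left) at E14, ordered by median log2 difference, which is printed at the right with the number tested; dashed lines mark the shares of all tested genes, 31.5% and 29.2%. Epicardium, fibroblast and fatty acid lists extend furthest to the right, and RNA-binding, foregut and lung lists furthest to the left.

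Coding rows were called more often than non-coding ones. Of 17384 tested coding genes, 5932 were higher and 5619 lower (66.4% called), and of 4355 long non-coding genes, 1403 were higher and 1038 lower (56.1%). Levels differ between the types, and within bins of mean CPM over the 12 libraries the gap changed. It was 41.4% of coding and 44.5% of long non-coding genes under 0.1 CPM, 56.3% and 52.0% from 0.1 to 1 CPM, 71.2% and 60.2% from 1 to 10 CPM, and 68.9% and 67.7% over 10 CPM. The direction also moved with level. From 0.1 to 1 CPM, 64.3% of the called long non-coding genes and 56.3% of the called coding genes were higher at E14, and over 10 CPM 38.1% and 44.9% were. Reads were shared with another interval for 2954 of the 4355 long non-coding genes, and in the 1401 others 29.2% were higher and 24.3% lower.

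Pseudogenes leaned towards E8. Of 3283 tested, 619 were higher and 1257 lower at E14, and of the 1797 that do not share reads 15.9% were higher and 45.7% lower. The lean grew with level: 60.9% of the 586 pseudogenes over 10 CPM were lower. Of 195 pseudogenes named after a ribosomal protein gene, 121 were lower and 9 higher (median log2 difference -0.66), while of 82 coding ribosomal protein genes 19 were lower and 7 higher (median -0.17). Of 342 pseudogenes whose parent gene was tested too, 162 had a parent that was not called, and 103 of these (63.6%) were lower and 6 higher. With a parent called lower, 75 of 114 were lower and 7 higher. With a parent called higher, 14 of 66 were lower and 20 higher. Reads of a processed copy can come from its parent, so the values of single pseudogenes are uncertain. MicroRNA rows (267 higher, 150 lower of 987), small structural RNA rows (315 and 150 of 1190) and TEC rows, gene models that await experimental evidence (491 and 144 of 1457), leaned towards E14. Without rows that share reads they did not: 8 were higher and 23 lower of 69, 21 and 34 of 131, and 37 and 48 of 195.

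**Figure D5:**
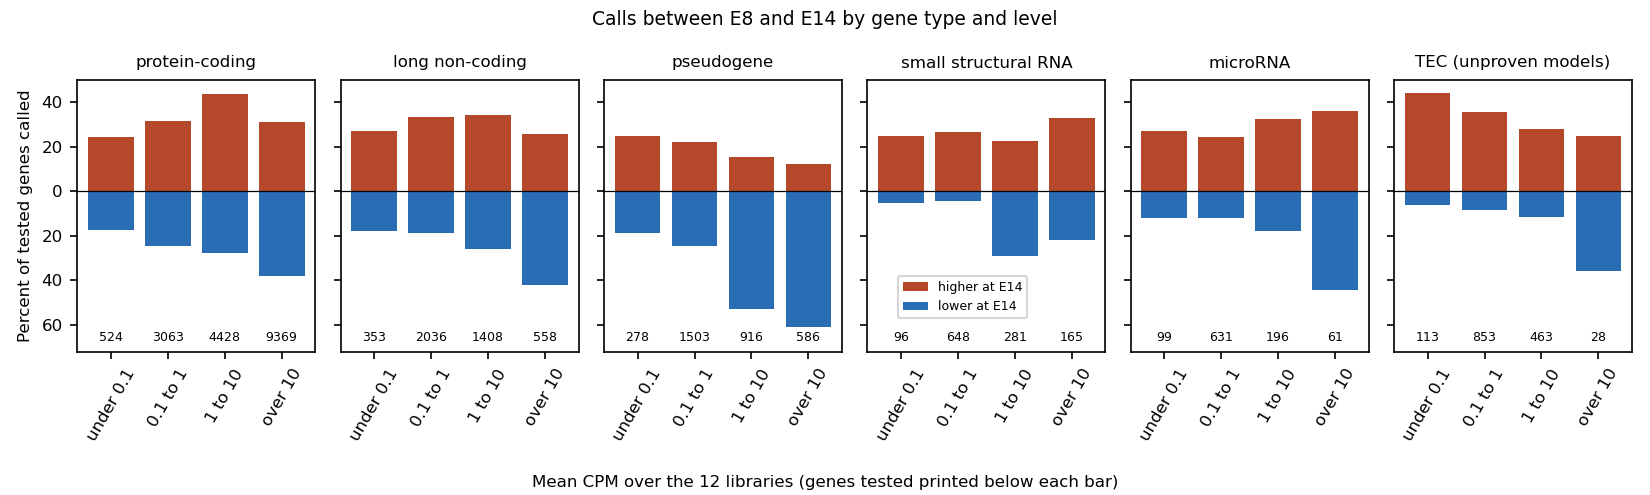
Percentage of tested genes called higher (red, upward) or lower (blue, downward) at E14 by gene type and by mean CPM over the 12 libraries, with the number tested under each bar. For pseudogenes the lower share grows from 18.7% under 0.1 CPM to 60.9% over 10 CPM. For coding genes the higher share is largest from 1 to 10 CPM, at 43.7%.

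Long non-coding genes that were switched on or off shared reads about as often as all tested long non-coding genes, of which 67.8% do. Of the 14 switched on, 9 share reads with an overlapping gene, such as 4930538E20Rik with Bcl11a and Gm43244 with Casq2. The 5 others were Gm26795 (0.0382, 0.0601 and 0.0319 to 6.40, 4.23 and 5.69 CPM), Gm6260 (0.0286, 0.0515 and 0.0638 to 3.42, 2.90 and 2.70 CPM), F930017D23Rik, F630028O10Rik and Gm13431. The nearest coding gene of Gm26795, Unc5d, was not called, whereas that of Gm13431, Ptgs1 at 7.49 kb, was higher as well. F630028O10Rik spans the microRNA gene Mir223 and went from 0, 2 and 0 to 94, 115 and 118 counts. Of the 6 switched off, Lhx1os (1.25, 1.14 and 1.12 to 0.0190, 0 and 0.0261 CPM) and Gm45152 (1.38, 1.05 and 1.43 to 0.0949, 0.0972 and 0.0782 CPM) share no reads, and Lhx1os lies 0.125 kb from the switched-off coding gene Lhx1 on the other strand. Gm13061 was switched off within Lin28a, with which it shares reads.

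Among long non-coding genes outside the classes, Wt1os, antisense to the epicardial gene Wt1, rose from 0.554, 0.627 and 0.590 to 11.05, 12.9 and 11.9 CPM (log2 4.33 ± 0.63, adjusted p = 0.000122, edgeR), and 9030622O22Rik, 2.67 kb from Foxa2, fell from 5.404, 4.15 and 4.01 to 0.0570, 0.184 and 0.365 CPM. Gm2117, on the X chromosome, fell from 47.2, 45.2 and 45.8 to 1.39, 1.06 and 1.003 CPM. Platr30 and Gm17575 fell by log2 differences of -4.69 and -4.87, with nearly equal counts in each E8 library, so reads may be shared between copies. Gm26887 fell (-4.32) while its neighbour Nanos3 rose. Of 61 tested long non-coding RNAs with established names 30 were lower and 16 higher (median -0.45): Mir99ahg, the host of a microRNA cluster, rose from 27.0, 18.01 and 19.6 to 284, 357 and 332 CPM and Malat1 from 998, 1022 and 1012 to 1951, 2515 and 2366 CPM, and Terc (-2.76), the telomerase RNA, Platr25 (-2.53), Gas5 (-0.82) and the cardiac transcripts Bvht (-1.21) and Carmn (-0.86) fell. Xist, which shares reads with Tsix, went from 123.2, 92.9 and 94.1 to 139.8, 173 and 188 CPM (log2 0.69 ± 0.28, adjusted p = 0.048, edgeR). This Xist call is marginal: it was lost with RLE factors (adjusted p = 0.053, edgeR) and with a replicate block (adjusted p = 0.0725, edgeR). It was also lost without E8 replicate 2 or 3 or E14 replicate 2 or 3, with adjusted p from 0.111 to 0.141 (edgeR), and without E8.5 replicate 1 or E9.5 replicate 1 or 3.

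Coding neighbours of long non-coding genes were described with the overlapping pairs set aside. Of 584 long non-coding genes with a coding gene within 10 kb, not overlapping and sharing no reads, 33.0% of the coding neighbours were higher and 36.8% lower. Of 150 such genes called higher, 81 coding neighbours were higher (54.0%) and 26 lower, and of 161 called lower, 94 were lower (58.4%) and 28 higher. The shares are a description, since genes are not replicates and unannotated transcript ends would also place reads of one gene on its neighbour. Some switched genes lie within 100 kb of another of their class without sharing its reads, such as Pf4 with Ppbp and Cldn6 with Zscan10.

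One block of rows rose apart from known heart genes. At the proximal end of chromosome 9 the lincRNA Gm26870 (3000282 to 3038313) overlaps 9 rows typed as coding, and it went from 0.983, 0.584 and 0.662 CPM at E8 to 1145, 764 and 1158 CPM at E14 (log2 10.43 ± 1.12, adjusted p = 1.66e-05, edgeR). At E9.5 it stood at 2.77, 8.62 and 0.0913 CPM, with replicate 3 the lowest. Within it Gm10721, Gm10717, Gm10720 and Gm17535 met the limits of the switched-on class, at 72.5, 54.9, 52.8 and 4.23 CPM at E14. These rows overlap Gm26870, share its reads and cannot be counted as separate genes. Whether reads in the block map to it alone cannot be told from the counts, so its levels and fold may hold reads of other copies of the sequence.

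The share of all counts held by each type moved by -1.36 to 1.22 percentage points. Coding rows took 68.1% ± 0.486 of the counts at E8 and 66.7% ± 0.995 at E14 (SD, n = 3), long non-coding rows 4.97% ± 0.00413 and 4.86% ± 0.102, pseudogenes 5.66% ± 0.154 and 4.89% ± 0.113, and microRNA rows 4.72% ± 0.118 and 5.77% ± 0.158. In each type the 3 libraries of one stage lay above the 3 of the other, and the exact two-sided permutation p was 0.1 for each, the smallest that 3 against 3 can give (adjusted p = 0.1). With small structural RNAs and globins left out, long non-coding rows took 5.93% at E8 and 6.19% at E14, so their direction turned. At E14 the largest long non-coding row was H19, with 8.47% of the counts of its type. At E8 it was Gm13938, which overlaps Ttn, with 7.96%.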

How the data were processed

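Total RNA of dissected cardiogenic regions was sequenced; per the labels' protocols, RNA came from TriZol and libraries from a standard Illumina protocol. STAR 2.5.0, Cufflinks 2.2.1 and the builds GRCm38, mm10 and hg38 are named, without roles, in the submitters' processing notes. The authors deposited whole-number read counts per gene interval, not normalized. Not given in the sources used here are the counter, its strand setting and the annotation, so overlapping and antisense genes may share reads, and intronic reads may count. Of 48709 intervals, 42778 matched GENCODE M21 by interval, 5645 by symbol and strand, and 286 not at all; types come from it. The 37 mitochondrial rows held 0 counts. Replicates differed beyond counting noise (mean chi-square per gene of 7.88 to 82.0) and each counted once. Depth was 56574386 to 122785175 counts per library; the floor of 3 counts used where a stage had none covers counting error only.

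In R 4.3.3, edgeR 4.0.16 (filterByExpr, TMM, robust glmQLFit) fitted 1 mean per stage to 12 libraries. A call is a Benjamini-Hochberg adjusted p below 0.05; errors of log2 differences are standard errors. CPM use TMM-scaled library sizes. Tested on simulated data, the fit recovered 77.9% of 199 genes changed 2-fold between E8 and E14 and 100% of those changed 4-fold, with 6 and 10 false calls among 28121 and 28092 genes. Only 199 genes differed in those data. How the fit behaves where most genes differ, as between E8 and E14 here, was not tested. Promoters come from RefSeq (GRCm38.p6), matched by symbol within 2000 bp of the interval's start.

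Named genes were set by rule: the 15 highest coding and 8 highest long non-coding members of each class, the 12 largest coding rises and falls of at least 10 CPM outside the classes and 6 long non-coding ones of at least 1 CPM with non-overlapping libraries, list members, Xist, Dnmt3a and Dnmt3b, and the 3 nearest genes on each side of a limit. Pseudogenes, ribosomal protein, histone, unnamed coding and read-sharing rows were left out of the ranked parts. Other class members, pseudogene groups and chromosome 9 rows were named after their values were seen. Some genes the rule names are not reported here. The comparison, the 32 lists and the rules were chosen with earlier results of these data known; of list genes, 53 lay below the filter and 10 were not matched. Alternatives were RLE and upper-quartile factors, other filters, a replicate block, fits of the compared stages alone, an adjustment for gene span, DESeq2 1.42.0, a test against a log2 change of 1, small RNAs and globins left out, other class limits and each library left out.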

Additional observations from a re-analysis of the deposited data

How the results depend on the processing

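Counts of genes higher at E14 ran from 6740 to 9877 and of genes lower from 6850 to 9548 over the normalizations, filters, tools and single libraries left out. Tested against a log2 change of 1 they were 3264 and 2013. With at least 1 CPM required in 3 libraries, 764 long non-coding genes were higher and 658 lower, with fewer genes tested. The switched-on class held 15 genes at limits of 0.05 and 2 CPM, 206 at 0.2 and 1 CPM, 19 at 3 counts and 57 without rows sharing reads, and the switched-off class 12, 98 and 21. With small structural RNAs and globins left out, the classes held 84 and 46 genes, of which 76 and 39 were in the main classes. Switched-on genes higher at E9.5 numbered 19 in the fit of E8.5 and E9.5 alone, which uses fewer libraries, and 29 to 41 with each library left out in turn. The difference in the share of counts of long non-coding rows, -0.11 percentage points, became 0.26 without small structural RNAs and globins. No scaling moved the median of all genes by more than 0.1. Replicate numbers did not pair the libraries: same-numbered E8 and E14 libraries correlated at -0.04, -0.055 and -0.035, and the fit with a replicate block called 8856 higher and 8246 lower. Genes near zero rest on few reads, a median of 14 over the E8 libraries for switched-on genes and 7 over the E14 libraries for switched-off genes. A library left out also takes its limit away, so a class tends to grow. Without each E14 library in turn the switched-off class held 54 to 55 genes, with all 45 kept. Without each E8 library the switched-on class held 102 to 114, with 91 or 92 of the 93 kept. For 221 genes named in the text, 58 of 4843 values under the alternatives lost the main call and 13 gained one. Most losses were against a log2 change of 1, with Dnmt3a, Myl7 and Tnni1 among them. With the gene span adjustment Esrrg passed at -0.65 and Unc5d at -0.58, against main log2 differences just above 0 that did not pass, and Ryr2, Ttn and Gata4 passed as lower.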

Other observations

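Gene families outside the lists also moved. Of 68 tested protocadherins, adhesion molecules of the cadherin group, 53 were higher at E14 and 14 lower by edgeR's quasi-likelihood test, and members of this clustered family overlap, so reads may be shared. Of 34 chemokines and receptors 19 were higher and 3 lower, and of 16 small leucine-rich and matricellular genes 11 were higher and 1 lower. Of 19 claudins, which seal epithelia, 10 were lower and 4 higher, and of 6 Irx homeobox factors 5 were lower and 1 did not pass the test. These families stood beside 31.5% of all tested genes higher and 29.2% lower.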
